A study of Homo sapiens with 24 samples.

Results

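Input chromatin, the sonicated DNA of a ChIP-seq experiment before any antibody is added, stood far above its usual level over a stretch of chromosome 22 and a stretch of chromosome 9. The first stretch ran from 19096833 to 23594296 of chromosome 22 (4.50 Mb), and its last site lay inside the interval of BCR. The second ran from 133587876 to 134207077 of chromosome 9 (0.619 Mb), and its first site ended just below the interval of ABL1. At both genes the point where input changed lies in a gap between sites and is not resolved. Members were all sites of the authors' deposited tables whose start lay in these limits, read as hg19, the build named in the submitters' processing notes. There were 207 members of 32666 sites in all. Of these, 202 were among the 30475 sites of the comparison of Rbap46 with input, with 177 on chromosome 22 and 25 on chromosome 9. The other 5 were among the 2191 sites of the H3K9ac comparison, with 4 on chromosome 22 and 1 on chromosome 9. The members were chosen by the input level in the same table, from which the limits had been set, so the input level, the Rbap46 level and the fold between them are given as a description with no test.

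All libraries were labelled hTert-HME1, a mammary epithelial line immortalised with telomerase and grown in mammary epithelial medium. Input and Rbap46 libraries came from untreated cells, with 2 of each, and Rbap46 (RBBP7) is a histone chaperone and partner of the acetyltransferase HAT1. H3K9ac, acetylated lysine 9 of histone H3, was measured in shControl and shHAT1 cells, with 3 libraries of each; shHAT1 cells carry a short hairpin RNA against HAT1. These groups held 10 of the 24 libraries of the series; the HAT1, H4K12ac and H4K5ac libraries were not analysed here. Whether the libraries of a group came from separate cultures is not given in the sources used here. Each table gave 1 mean per group and site, so no spread between libraries and no depth per library could be stated. A level below is the log2 of the mean normalized read concentration of a group, as the authors gave it. The labelled cell type was not checked against marker genes, since no annotation of hg19 was used here.

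BCR encodes a protein with kinase and GTPase-regulating domains, and ABL1 encodes a tyrosine kinase. Both are best known from the Philadelphia chromosome, the exchange between the long arms of chromosomes 9 and 22 that joins the front part of BCR to the greater part of ABL1 in chronic myeloid leukaemia. In that fusion the DNA before the break in BCR and the DNA after the break in ABL1 lie side by side. The stretch of chromosome 22 before BCR is 22q11.2, which holds the immunoglobulin lambda genes and the region deleted in DiGeorge syndrome, and its low-copy repeats make it prone to rearrangement. Since input carries no enrichment by an antibody, its level over a wide region follows the number of DNA copies, how well reads map there and how readily the chromatin is sheared.

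By gene order in the RefSeq table of GRCh38.p14, the protein-coding genes just before BCR are RSPH14, GNAZ and RAB36, and those just after it are IGLL1 and DRICH1. EXOSC2 comes before ABL1, and QRFP, FIBCD1, LAMC3, AIF1L, NUP214, FAM78A, PLPP7 and PRRC2B follow it in this order. This table was used for names and order only, because its positions are of another build. Of the 52 genes listed for 22q11.2, from DGCR2 to BCR, all 52 were found in it, as were 8 of 8 listed for the stretch from ABL1 to PLPP7. Which of them have a site at their start was not analysed here.

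The starts of both genes are shown because the ends of the segments were set against them. The sequences are those of RefSeq for GRCh38.p14, plus strand, from 250 bases before to 50 bases after the start, with each CG dinucleotide in capitals.
BCR: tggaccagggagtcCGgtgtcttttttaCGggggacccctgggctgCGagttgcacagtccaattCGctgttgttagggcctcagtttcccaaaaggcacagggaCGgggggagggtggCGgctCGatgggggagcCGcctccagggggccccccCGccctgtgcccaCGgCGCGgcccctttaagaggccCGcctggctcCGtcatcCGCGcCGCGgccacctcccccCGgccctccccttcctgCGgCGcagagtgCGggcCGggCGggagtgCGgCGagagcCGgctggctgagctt
ABL1: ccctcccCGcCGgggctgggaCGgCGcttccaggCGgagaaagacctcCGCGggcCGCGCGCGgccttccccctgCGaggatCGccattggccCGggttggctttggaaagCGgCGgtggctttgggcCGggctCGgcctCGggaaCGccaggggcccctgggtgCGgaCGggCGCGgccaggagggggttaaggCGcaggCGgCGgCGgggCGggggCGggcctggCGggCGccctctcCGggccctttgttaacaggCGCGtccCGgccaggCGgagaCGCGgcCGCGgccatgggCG
The motif CG, which reads the same on both strands, occurred 27 times in the BCR sequence and 42 times in that of ABL1. The median over the 35116 promoters of the table was 14, and 28.2% of them held at least 27 and 5.85% at least 42. Both genes thus start in CG-rich sequence, with 71.7% and 78.3% G and C against a median of 58.7%.

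On chromosome 22, the input level of the 177 members ran from 3.16 to 9.06, with a median of 7.51 and quartiles of 7.02 and 8.25. The other 578 sites of the chromosome had a median of 5.50 and ran from 2.57 to 7.89. The difference of the medians, 2.01 on the log2 scale, is a 4.03-fold higher input. The ranges overlapped, with most sites of each set on its own side: 1 of the 578 other sites reached the median of the members, and 5 members lay below the median of the other sites. On chromosome 9, the 25 members ran from 5.68 to 9.64 with a median of 7.75, against a median of 5.72 over the other 1195 sites, which ran from 1.16 to 8.26. This difference was 2.03, or 4.08-fold. Here 5 of the other sites reached the members' median and 1 member lay below the median of the other sites. The rise was of nearly the same size on both chromosomes, as the plot of values by set shows.

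**Figure D1:**
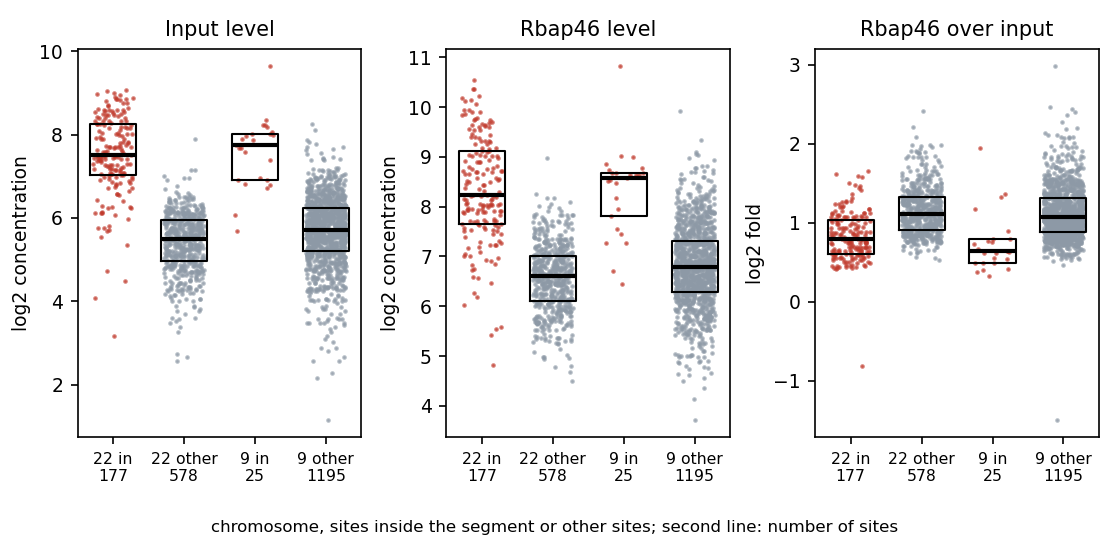
Input level, Rbap46 level and log2 fold of Rbap46 over input at each Rbap46 site of chromosomes 22 and 9, for sites inside the segments (red) and the other sites of the same chromosome (grey). Each dot is 1 site (mean of 2 libraries per group), boxes span the quartiles and the thick line is the median; input medians were 7.51 and 7.75 inside against 5.50 and 5.72 elsewhere, while median folds were 0.79 and 0.65 against 1.11 and 1.08.

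Against the genome as a whole, input levels of this size were rare outside the segments. An input level of 8 or more was found at 92 sites of the table, of which 61 lay in the segment of chromosome 22 and 8 in that of chromosome 9. These 69 sites make up 75% of all such sites, while the members were 0.663% of the table. The other 23 were spread over 10 chromosomes, and at 10 of them the Rbap46 level was below input. At an input level of 7 or more, 151 of the 202 members were among 1274 sites of the table, a share of 11.9%. The table was also divided into windows of 1 Mb, of which 1110 held at least 10 sites. The 5 windows with the highest median input were the 5 from 19 to 24 Mb of chromosome 22, at 7.42 to 7.68. The next was a window of chromosome 21 from 30 to 31 Mb, at 6.84, and the median over all windows was 5.84. The windows that hold the shorter segment of chromosome 9 mix members and other sites, and reached 6.63 and 6.58, in places 12 and 16. The window from 23 to 24 Mb of chromosome 22 was also mixed, with 72.7% of its sites members. By median Rbap46 log2 fold, the windows of chromosome 22 from 22 to 23 Mb and 23 to 24 Mb were the lowest of the 1110, at 0.69 and 0.70 against a median over windows of 1.04.

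**Figure D2:**
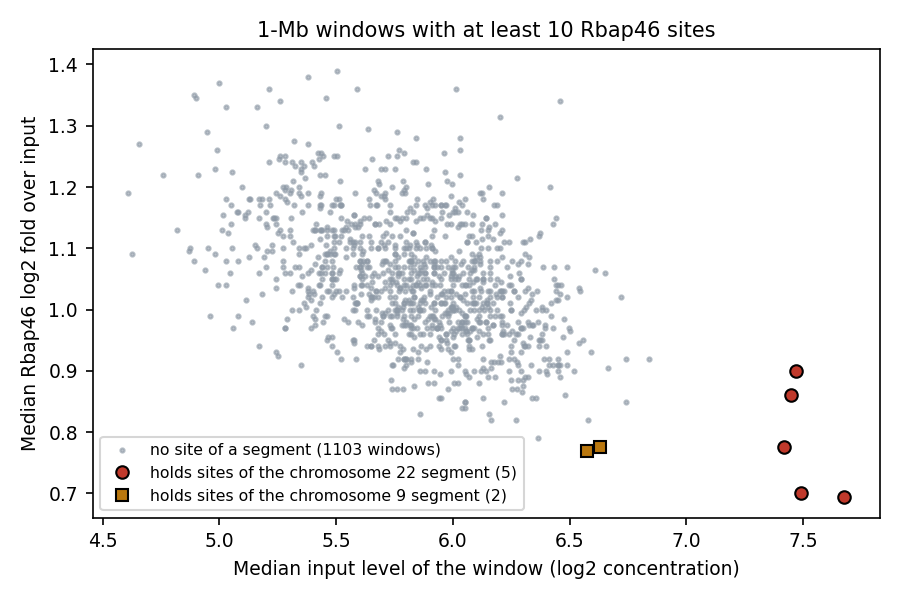
Median input level (horizontal axis, log2 concentration) and median Rbap46 log2 fold over input (vertical axis) of each 1-Mb window with at least 10 Rbap46 sites. The 5 windows that hold members on chromosome 22 (red) lie at an input of 7.42 to 7.68. They lie to the right of all windows without a member (grey), whose highest value was 6.84. The 2 windows that hold the chromosome 9 segment (squares) lie at 6.58 and 6.63 with folds of 0.77 and 0.78.

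Of the 4 ends, the one at BCR had the largest step in input between neighbouring sites, though across the widest gap. The interval of BCR, 23.52 to 23.66 Mb, held 8 sites, all of them members. Their input levels, from the first to the last, were 8.16, 8.33, 7.79, 8.33, 8.24, 8.50, 8.80 and 8.48. Every site in the gene's interval was thus at least 2 log2 units above the chromosome's usual 5.50. The last of them, from 23593796 to 23594296, had a level of 8.48 in input and 9.01 in Rbap46. The next site of the chromosome, from 23744406 to 23745324, had 5.57 and 6.34. Between these neighbours, 150 kb apart, input fell by 2.91 and Rbap46 by 2.67 on the log2 scale. The last member lay 65.7 kb before the end of the BCR interval, and no site lay in the rest of the gene. The gap runs past the end of that interval. The point of the fall within those 150 kb is therefore not resolved, and it is not shown to lie within BCR. The following sites stayed low, with input levels of 4.27 at 23775329 and 5.74 at 23863758. Taking 10 sites on each side, the medians were 8.29 inside and 5.32 outside, and the groups did not overlap, with a lowest level of 7.17 inside and a highest of 6.11 outside.

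**Figure D3:**
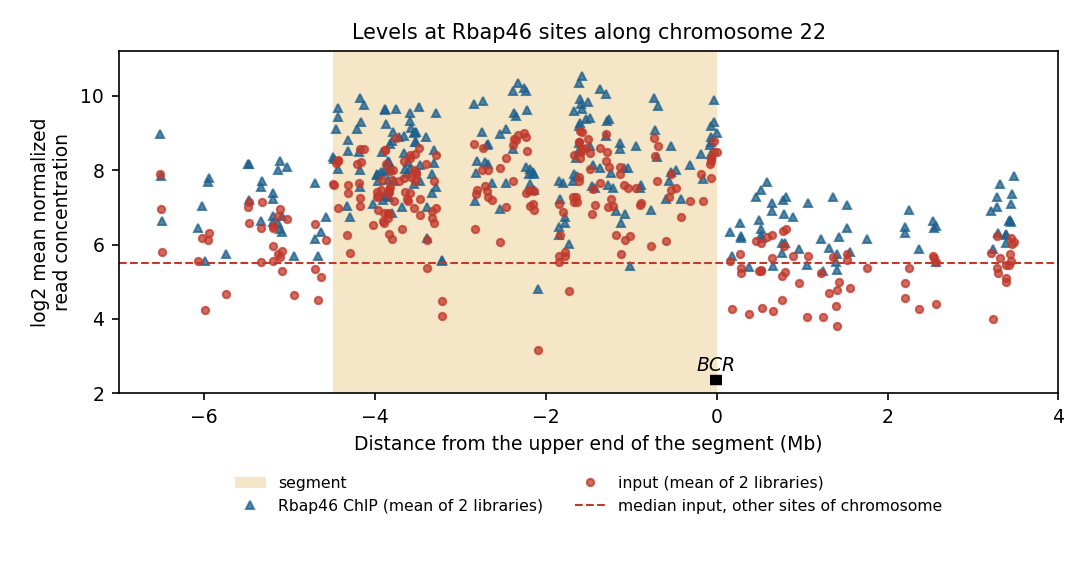
Input (red circles) and Rbap46 (blue triangles) levels at Rbap46 sites of chromosome 22 by distance from the upper end of the segment in Mb; each symbol is the authors' mean of 2 libraries, the shaded band is the segment, the black bar the interval of BCR and the dashed line the median input of 5.50 over the other sites. Input inside has a median of 7.51, and it drops from 8.48 at the last member to 5.57 at the next site.

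At the other end of the chromosome 22 segment the step was smaller. The first member, from 19096833 to 19097333, had an input level of 7.62, and the next members, starting at 19109058 and 19132065, had 7.59 and 8.19. The sites just outside, starting at 19023006, 18958004 and 18923455, had 6.12, 5.12 and 4.50. Input thus rose by 1.5 and Rbap46 by 1.62 over a gap of 73.3 kb. The medians of 10 sites on each side were 7.60 inside and 5.59 outside, with single sites that overlapped: the lowest inside was 5.77 and the highest outside 6.97.

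On chromosome 9 the lower end lay at ABL1. The first member, from 133587876 to 133588376, ended just below the interval of ABL1 (133.59 to 133.76 Mb, given to 0.01 Mb) and had an input level of 6.73. The site before it, starting at 133582566, had 4.35, a step of 2.38 over a gap of 4.81 kb, and those before that, starting at 133568952 and 133557657, had 6.61 and 5.76. The level of the first member was therefore close to that of a site outside, and the first site with a clearly high level, 8.19, started 113 kb further on, at 133700401. No site lay between, so the point of the rise is not resolved, and it is not shown to lie within ABL1. The interval held 6 sites, with input levels in order of position of 8.19, 5.68, 7.90, 7.98, 7.97 and 8.35. Of these, 5 were more than 2 log2 units above the chromosome's median, and the site starting at 133710230 was at that median. The upper end was gradual. The last member, from 134206577 to 134207077, had 6.81, after 7.86 and 7.68 at the members before it, and the sites outside had 6.18, 5.67 and 6.92. The third site outside was thus as high as the last member. Medians of 10 sites on each side were 7.43 inside and 6.0 outside at the lower end, and 7.81 and 6.07 at the upper end.

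**Figure D4:**
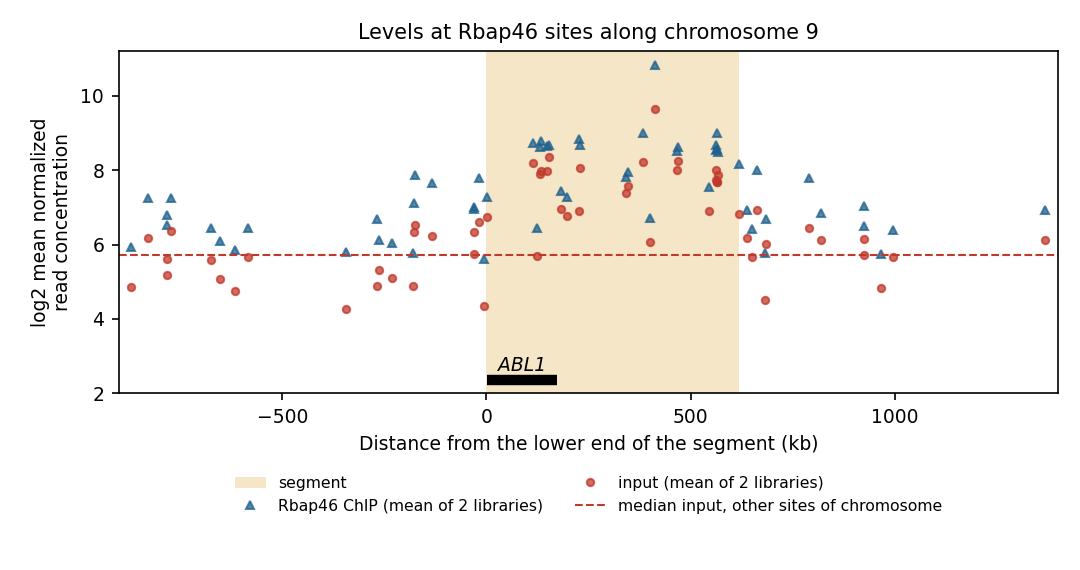
Input (red circles) and Rbap46 (blue triangles) levels at Rbap46 sites of chromosome 9 by distance from the lower end of the segment in kb; each symbol is the authors' mean of 2 libraries, the shaded band is the segment, the black bar the interval of ABL1 and the dashed line the median input of 5.72 over the other sites. The members have a median of 7.75, and the stretch with no site at the start of ABL1 separates the first member (6.73) from the first site above 8 (8.19).

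Within the segment of chromosome 22 the rise was broad rather than made of single sites. Of its members, 153 of 177 (86.4%) were at least 1 log2 unit above the median of the other sites, against 18 of the other 578 (3.11%). On chromosome 9 this was so for 23 of 25 members and 94 of the other 1195 sites (7.87%). By steps of 0.5 Mb from 19 to 24 Mb of chromosome 22, the median input lay between 7.14 and 8.08 in every step. It was highest from 22 to 22.5 Mb, at 8.08 over 23 sites, and lowest from 21.5 to 22 Mb, at 7.14 over 19 sites. The steps on either side were at 5.33 from 18.5 to 19 Mb and 5.63 from 24 to 24.5 Mb. The segment ends within the step from 23.5 to 24 Mb, where 8 of the 14 sites were members.

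The 24 members raised by less than 1 fell into 18 runs, of which 13 were single sites and the longest comprised 3. The lowest input levels were 3.16 at 21496732, 4.09 at 20378679 and 4.48 at 20378013. The sites at 21496732 and 20378679 bordered long stretches with no site at all. After 20378679 the next member started 370 kb further on, the largest gap of the segment. The 10 consecutive sites of lowest median input, from 21457024 to 21868358, had a median of 5.75, with 7 of the 10 raised by less than 1. The 104 members before them had a median of 7.47 and the 63 after them, up to BCR, a median of 7.82. Input was therefore raised on both sides of this dip. The median was higher on the side of BCR, but the quartiles overlapped, at 6.99 and 8.17 before the dip and 7.17 and 8.47 after it. There was no steady rise towards BCR, with medians of 7.51 from 22.5 to 23 Mb and 7.37 from 23 to 23.5 Mb.

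The highest input levels on chromosome 22 were 9.06 at 21996337, 9.04 at 22020169 and 9.01 at 21336140. All of these were also high in Rbap46, at 9.91, 10.54 and 10.22. On chromosome 9 the highest input, 9.64, was found from 134000727 to 134001227, where the Rbap46 level was 10.82. The next highest were 8.35 at 133741758, inside the ABL1 interval, and 8.24 at 134055815, with Rbap46 levels of 8.68 and 8.63. The lowest on chromosome 9 were 5.68 at 133710230 and 6.08 at 133987552, followed by the first member.

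The Rbap46 level was also higher in both segments. This is not independent of the choice of members by input level: 99.8% of all sites, which had passed the FDR limit, were higher in Rbap46 than in input. What sets the Rbap46 level in the segments was not tested. The median Rbap46 level was 8.24 in the segment of chromosome 22, with a range of 4.81 to 10.54, and 6.61 over the other sites of the chromosome. On chromosome 9 it was 8.57 in the segment and 6.78 elsewhere. These differences, 1.63 and 1.79, are 3.10-fold and 3.46-fold on the linear scale, and were smaller than those of input. Rbap46 over input was accordingly lower in the segments. The median log2 fold from the authors' deposited table was 0.79 in the segment of chromosome 22 and 1.11 elsewhere on it, and 0.65 in the segment of chromosome 9 and 1.08 elsewhere.

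Shares of members that passed limits on FDR and fold are given beside those of all sites. At the authors' FDR under 0.05, 176 of 177 members on chromosome 22 and 25 of 25 on chromosome 9 were higher in Rbap46, against 99.8% of the whole table. At least a 2-fold enrichment (log2 fold of at least 1) was seen at 53 of the 177 (29.9%) and 4 of the 25 (16.0%), against 58.0% of the table. Since the fold belongs to the contrast that chose the members, nothing is read from these shares. The authors' FDR was under 0.01 with a higher Rbap46 level at 145 of 177 and 16 of 25 members, against 73.1% of the table. Sites were dense in the segments, with 39.4 per Mb on chromosome 22 against 19.5 per Mb over the rest of the chromosome. Sites with at least a 2-fold enrichment were not: there were 11.8 per Mb inside and 12.7 per Mb outside. On chromosome 9 the densities were 40.4 per Mb inside and 8.51 outside, a span that includes long stretches with no site, and those of sites enriched at least 2-fold were 6.46 and 5.09. All these densities are of sites that passed the FDR limit, which depends on the input level, and nothing is read from them either.

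The fold is also given by range of input level, again as a description of the values behind the rule. Outside the segments, the authors' deposited table had a smallest positive log2 fold of 0.62 where input was under 6, 0.47 from 6 to 7, 0.38 from 7 to 8, 0.60 from 8 to 9 and 0.43 at 9 and above. The last of these ranges hold few sites outside, 15 and 8. In the chromosome 22 segment the smallest positive fold was 0.74, 0.50, 0.41, 0.43 and 0.86 in the same order. The median log2 fold where input was under 6 was 0.94 over 12 members of chromosome 22 and 0.76 at 1 of chromosome 9, against 1.07 over 17663 sites elsewhere. From 6 to 7 the medians were 0.74 over 31 members, 0.63 over 7 and 1.02 over 11487 sites elsewhere. From 7 to 8 they were 0.66 over 73 members, 0.73 over 9 and 0.99 over 1100 sites elsewhere. Up to an input of 8, members of both chromosomes thus had a lower median fold than the sites elsewhere. From 8 to 9 the median was 1.00 over 58 members of chromosome 22, 0.55 over 7 of chromosome 9 and 0.81 over the 15 sites elsewhere. At 9 and above it was 1.21 over 3 members, 1.17 at 1 member and -0.17 over the 8 sites elsewhere. From 8 to 9 the order therefore differed between the chromosomes, and at 9 and above the members of both were higher than the sites elsewhere.

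Sites with a high Rbap46 fold were found within both segments. The highest fold on chromosome 9 was at 133814373 to 133814873, where the authors' deposited table gives 1.95 on the log2 scale (FDR 6.27e-29) and levels of 8.85 in Rbap46 and 6.90 in input. The next were 1.36 at 134206577, the last member, and 1.33 at 134152557. On chromosome 22 the authors' deposited table gives a log2 fold of 1.59 (FDR 3.22e-61) from 21983449 to 21983949, where Rbap46 stood at 10.36 and input at 8.77. A site of lower level, from 20287160 to 20287660, had 1.62 (FDR 3.66e-17) in the same authors' deposited table. The highest fold on the chromosome, 1.65 at 21496732, stood at the site of lowest input, and its FDR there was 0.0149 (authors' deposited table). At the bottom of the order, 1 of the 202 members had less Rbap46 than input. This site, from 22574134 to 22574634, stood at -0.81 on the log2 scale (FDR 0.0317) in the authors' deposited table, where 0.164% of all sites were below input. The lowest positive folds were 0.41 at 22222918 and 0.43 at 20960432 on chromosome 22, and 0.33 at 133741758, 0.38 at 133933099 and 0.40 at 134055815 on chromosome 9.

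For the genes at the ends the folds are given as a description only, since their sites were among the members chosen by input level. Among the 8 sites of the BCR interval, log2 folds in the authors' deposited table ran from 0.51 to 1.09 with a median of 0.61, and 1 site reached 1. This was the site from 23565952 to 23566452, at 1.09 by the authors' deposited table (FDR 3.91e-25), where Rbap46 stood at 9.90 and input at 8.80. Among the 6 sites of the ABL1 interval the log2 fold in the authors' deposited table ran from 0.33 to 0.79, and none reached 1. Neither interval held a changed H3K9ac site. Outside the segments, 3.98% of Rbap46 sites on chromosome 22 and 6.95% on chromosome 9 overlapped one, so nothing is read from this absence.

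H3K9ac was measured in other libraries than those behind the rule, and offers the only values independent of it. The deposited table holds only sites at an FDR under 0.1 for shControl against shHAT1, so it gives 5 members. On chromosome 22 the site from 19159124 to 19159624 had a level of 9.85 in shControl and 9.33 in shHAT1 cells. The site from 19279301 to 19279801 had 8.0 and 7.30. The site from 19466841 to 19467818 had 10.54 and 9.71, the highest of these 4. The site from 21213235 to 21213735 had 8.70 and 8.09. Their shControl levels spanned the range of the chromosome: 2 of the other 41 sites were at least as high as the highest, and 39 were at least as high as the lowest. The median over the 4 sites was 9.28, against 9.42 over the other 41, a difference of -0.14. In shHAT1 cells the medians were 8.71 and 8.60. With 4 sites these differences changed sign with the sites compared, from -0.77 to 1.02 in shControl. No test over libraries was possible for them.

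On chromosome 9 the single H3K9ac member, from 134000437 to 134001387, had 10.17 in shControl and 9.26 in shHAT1 cells. Of the other 112 sites of the chromosome, 13 were at least as high in shControl, and their median was 9.39. It overlapped the Rbap46 site of highest input, 9.64, a level that none of the other 1195 Rbap46 sites of the chromosome reached.

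Every one of the 5 H3K9ac members overlapped an Rbap46 member, which allows input and H3K9ac to be set side by side at the same place. At the 4 overlapping Rbap46 sites of chromosome 22, in the order above, input was 8.25, 7.61, 8.57 and 8.68. Across the genome, 1663 H3K9ac sites outside the segments overlapped an Rbap46 site, and the highest input among those was 7.75. Input at 4 of the 5 members exceeded that of all 1663 others, but the members had been chosen by input. The shControl H3K9ac levels of the 5 lay within the range of the others, 7.03 to 11.92. Of the others, 62 were at least as high as the highest member, and 3 of the 5 members were at or above their median. No contrast is drawn from this, and whether H3K9ac shares the rise of input was not tested. The medians of the 5 and of the 1663 were 8.57 and 6.49 in input, 9.75 and 7.71 in Rbap46, and 9.85 and 9.41 in shControl H3K9ac. The differences were 2.08 in input, 2.04 in Rbap46, 0.44 in shControl and 0.62 in shHAT1 H3K9ac. The 2 tables were normalized separately and H3K9ac also varies with promoter activity, so these differences describe 5 places and were not tested.

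**Figure D5:**
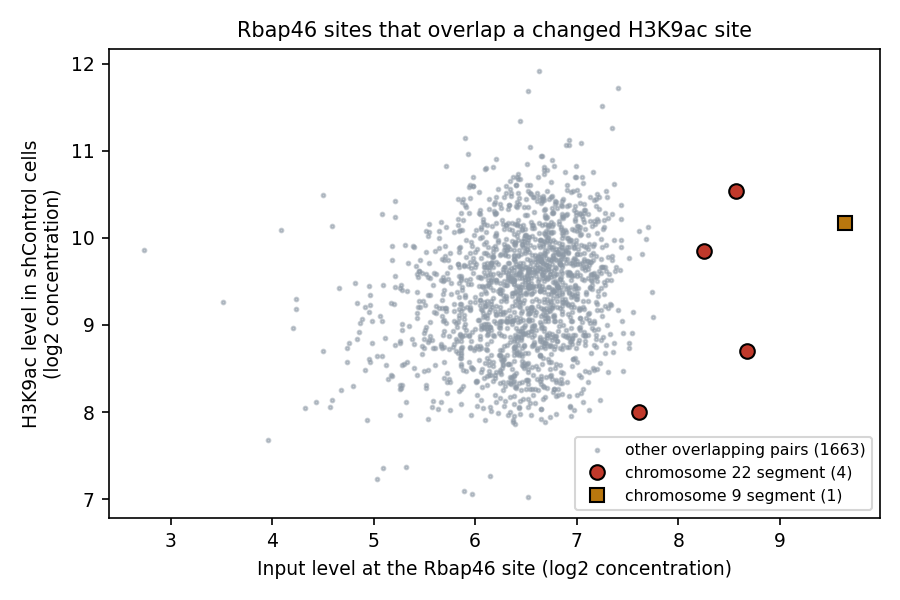
H3K9ac level in shControl cells (vertical axis, mean of 3 libraries) against the input level of the overlapping Rbap46 site (horizontal axis, mean of 2 libraries), both as log2 concentration; each point is 1 H3K9ac site. The 5 sites in the segments (large symbols), which were chosen by input, have an input of 7.61 to 9.64. Of these, 4 lie beyond the highest of the other 1663 (grey, up to 7.75). The H3K9ac levels of the 5, 8.0 to 10.54, lie within the range of the others.

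All 5 H3K9ac members were lower in shHAT1 than in shControl cells, as were 99.2% of the sites of the table. Log2 folds of shControl over shHAT1, from the authors' deposited table, were 0.52, 0.70, 0.83 and 0.61 on chromosome 22 and 0.91 on chromosome 9. These correspond to losses of 1.43-fold to 1.88-fold. The FDR in the authors' deposited table was under 0.05 at 2 of the 5, with 0.0364 at 19466841 and 0.0391 at 134000437, against 36.1% of the table. The nearest H3K9ac sites outside had log2 folds of 0.50 at 18484179 and 1.09 at 24236478 on chromosome 22, and of 0.95 at 133568608 and 0.70 at 135545331 on chromosome 9, in the authors' deposited table. The median fold in the segment of chromosome 22, 0.65, differed from that of the other 41 sites, 0.72, by -0.07. Of the Rbap46 members, 4 of 177 on chromosome 22 (2.26%) overlapped a changed H3K9ac site, against 23 of 578 elsewhere on the chromosome (3.98%). On chromosome 9 the counts were 1 of 25 (4.0%) and 83 of 1195 (6.95%). The share over all Rbap46 sites is not given here. Rbap46 sites were denser in the segments, and which of them pass the FDR limit depends on input, so nothing is read from these shares.

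Whether the raised input stands for more copies of the DNA in the cells behind the Rbap46 and input libraries, and whether BCR and ABL1 are joined in them, was not tested.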

How the data were processed

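The tables analysed were the authors' comparisons of Rbap46 with input and of H3K9ac in shControl with shHAT1 cells. Per the submitters' processing notes, reads were handled with cutadapt, Bowtie2, SAMtools, Picard, MACS2 and DiffBind on build hg19, with DESeq2 also named for the Rbap46 samples; the scaling between libraries is not given in the sources used here. Levels and folds are log2 values deposited by the authors, as group means. Base 2 was checked: the overall concentration equals the log2 mean of both groups within 0.00971. The p-value and FDR are those of the authors' deposited tables, which hold only sites at an FDR up to 0.05 (Rbap46) or under 0.1 (H3K9ac). A wide change in input therefore also alters which sites pass.

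Members and gene lists were chosen with earlier results of these data known. Medians, counts and overlaps of at least 1 bp were computed with Python 3.11, numpy 2.4.6, pandas 2.3.3 and matplotlib 3.10.9, and the median difference was tested on simulated data. Medians rest on sites, which are not replicates, so no p-value was computed. Sites named are the 3 on each side of each end, the 3 highest and lowest in input and in fold of each segment, the sites of both gene intervals, and each H3K9ac member with its neighbours. The extremes of the dip and the site of highest fold in BCR were chosen after their values were seen. Alternatives were nearer or genome-wide comparison sites, means, and limits on width, concentration and FDR.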

Additional observations from a re-analysis of the deposited data

How the results depend on the processing

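Of 65 alternatives that gave a value, 62 were listed beforehand and 48 kept the sign and stayed within 1.5 times the reported difference. All 42 for input, Rbap46 level and Rbap46 fold did so: the input difference ranged from 1.66 to 2.11 on chromosome 22 and from 1.75 to 2.02 on chromosome 9, and the fold difference from -0.33 to -0.26 and from -0.44 to -0.38. Leaving out the 10 consecutive sites of lowest input, an alternative chosen after seeing the data, was among these. Because the members were chosen by input level, that these 42 held was largely set in advance. No support is drawn from it. The differences that moved or reversed were those of the 4 H3K9ac sites of chromosome 22, where few sites remain under each limit. The shControl difference of -0.14 became 0.005 against sites within 5 Mb, -0.015 against autosomes, -0.10 with means, -0.77 at the smallest width, 0.24 above the 25th percentile of concentration and 1.02 at FDR under 0.05, where 1 site was left. The shHAT1 difference of 0.11 became 0.32, 0.19, -0.0427, -0.51, 0.45 and 1.19 in the same order. The H3K9ac fold difference of -0.07 became -0.035 within 5 Mb, -0.12 against autosomes, -0.14 at the smallest width, -0.10 above the 25th percentile and -0.16 at FDR under 0.05. No paired analysis was possible because each group has a single mean per site, and no library could be left out for that reason. Depth per library is unknown.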
